A study of Mus musculus with 14 samples.

Results

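Immunoglobulin and B lineage genes were followed in the mouse thymus through 7 member genes: Ighm, Igha, Iglv1, Jchain, Cd79a, Cd79b and Ms4a1. They were read from every probe set that the array annotation assigned to one of these genes alone, which gave 21 of 22690 probe sets on the arrays and 7 of 12385 genes. The genes were chosen from measured values: Iglv1 had been seen to be higher on day 6 of estradiol than in untreated mice, and Ighm, Iglv1 and Jchain to vary among the days of estradiol. Their levels under estradiol are therefore a description: where calls of the fit across all probe sets are counted there, they support nothing. Tests are given for genistein, whose comparisons share the control arrays with those of estradiol. A further 5 probe sets were annotated to a member and to another gene together and were left out.

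RNA came from the thymus of female C57BL/6 mice, an inbred strain, that lost their ovaries at 26 days of age, ate a diet free of phytoestrogens from shortly afterwards and entered treatment at 30 days of age. In 3 groups estradiol, the main ovarian estrogen, was injected daily under the skin (125 ng in 0.02 ml of corn oil) and the thymus was taken at day 2, 3 or 6. In 3 others genistein, an isoflavone of soy with affinity for the estrogen receptors, was given in the diet at 1500 ppm for 2, 3 or 6 days. Control mice had the same operation and were taken untreated at day 0. Each group had 2 arrays and each array a pool of 3 mice, which the labels call independent biological replicates. With controls at day 0 only, treatment and time cannot be told apart, and injection and oil were given to the estradiol mice only.

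An antibody is built from heavy chains and light chains. Ighm encodes the constant part of the heavy chain of IgM, Igha that of IgA, and Iglv1 a variable segment of the lambda light chain, while kappa genes encode the other kind of light chain. Jchain encodes the joining chain that links IgM and IgA units into polymers and is made by antibody-secreting cells. Cd79a and Cd79b form the signalling pair of the B cell receptor, and Ms4a1 encodes a membrane protein of B cells that plasma cells lose. A small population of B cells lives in the normal thymus, mostly in its medulla.

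The thymus identity of the samples was clear from bright Rag1, Dntt, Cd8a and Cd8b1, whose mean signals were 2401, 3085, 1836 and 2084. Signals are given after every array was brought to the same 2%-trimmed mean, because estradiol day 2 replicate 2 and both estradiol day 3 arrays had been deposited at 1.49 to 2.23 times the scale of the remaining 11. For Gapdh, 3' over 5' signal, which grows as RNA breaks down, reached 1.503 on replicate 1 of genistein day 6 and 1.27 on replicate 1 of estradiol day 2, with 0.867 to 1.10 elsewhere. Of the 21 member probe sets 13 were bright enough to be tested, with at least 1 for each gene. The 13 were 5 of 11 for Ighm, 3 of 3 for Igha, 1 of 2 for Iglv1 and for Ms4a1, and the single probe sets of Jchain, Cd79a and Cd79b. In whole-organ RNA a change in the number of cells of a type cannot be told apart from a change in RNA per cell.

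Iglv1 stood above its control level at days 2 and 6 of estradiol and near it at day 3. Probe set 1430523_s_at had signals of 120.2 and 113 (estradiol day 2), 59.3 and 79.9 (day 3) and 239.9 and 218 (day 6), against 63.0 and 53.6 in controls. Both arrays of days 2 and 6 lay above both controls, whereas those of day 3 overlapped them. The mean was 229 ± 15.7 at day 6 of estradiol and 58.3 ± 6.65 in controls (SD, n = 2 each). On the log2(signal + 16) scale, which shrinks changes of dim probe sets, the difference from control was 0.84 at day 2, 0.20 at day 3 and 1.72 at day 6 (limma SE 0.209). Genistein arrays read 44.5 and 62.7 (day 2), 66.6 and 43.4 (day 3), and 80.4 and 68.2 (day 6), so only the day 6 arrays were both above the controls. The day 6 difference of 0.28 ± 0.209 did not pass (limma, adjusted p = 0.661). The second Iglv1 probe set, 1427292_at, was too dim to be tested and stayed between 11.4 and 27.6 on all arrays.

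Jchain followed the same order of days under estradiol. It read 342 and 266 (day 2), 204 and 187 (day 3), and 491 and 402 (day 6), against 164 and 223 in controls. Day 3 again overlapped the controls, and days 2 and 6 did not. The log2 differences were 0.62, 0.03 and 1.15 (SE 0.198). Genistein gave 151 and 179 (day 2), 239 and 202 (day 3), and 361 and 272 (day 6). Both day 6 arrays stood above both controls, with a difference of 0.67 ± 0.198 that did not pass over all probe sets (limma, adjusted p = 0.362). Between the treatments at day 6, Jchain was 0.48 ± 0.198 higher with estradiol.

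**Figure D1:**
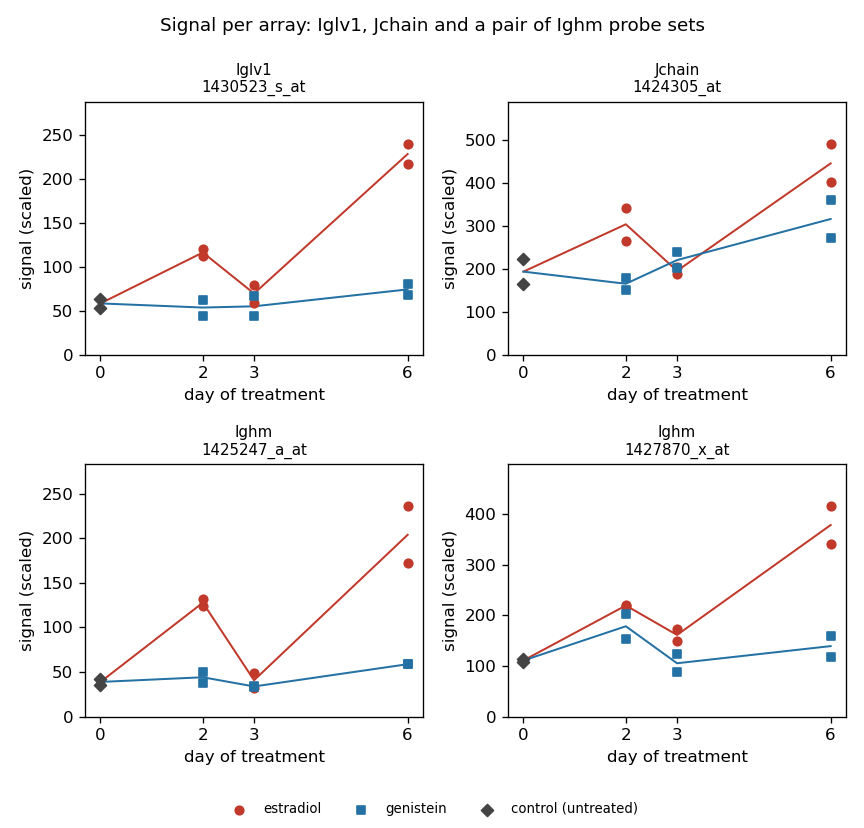
Signal (vertical axis, scaled units) against day of treatment for Iglv1, Jchain and a pair of Ighm probe sets. Points are arrays, lines join group means, and both treatments start from the untreated controls at day 0. The Ighm pair was picked for the largest day 6 estradiol differences among the tested Ighm probe sets, and the others are not drawn. Under estradiol all 4 panels are higher at days 2 and 6 than at day 3, and Iglv1 reaches 239.9 and 218 at day 6.

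Promoter sequences of RefSeq (build GRCm38.p6) were at hand for 2 of the 7 members, Jchain and Cd79a. They are shown because Jchain was higher at days 2 and 6 of estradiol while Cd79a stayed near its control level. Each line gives the 250 bases before the start of transcription, 5′ to 3′ on the gene's own strand: chr5:88527898-88528147 on the minus strand for Jchain, and chr7:24897247-24897496 on the plus strand for Cd79a. Capitals mark E boxes (CANNTG, the same on both strands), which basic helix-loop-helix factors bind.
Jchain: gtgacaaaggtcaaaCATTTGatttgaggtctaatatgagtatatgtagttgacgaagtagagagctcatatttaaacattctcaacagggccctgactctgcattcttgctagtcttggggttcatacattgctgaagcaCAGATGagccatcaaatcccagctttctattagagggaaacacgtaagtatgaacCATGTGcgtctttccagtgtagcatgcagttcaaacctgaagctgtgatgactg
Cd79a: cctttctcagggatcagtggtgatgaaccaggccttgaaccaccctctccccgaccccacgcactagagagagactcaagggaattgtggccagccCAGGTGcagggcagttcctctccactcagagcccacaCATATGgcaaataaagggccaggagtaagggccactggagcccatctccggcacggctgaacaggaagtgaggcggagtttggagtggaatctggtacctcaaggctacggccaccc
The Jchain window held 3 E boxes, starting 235, 109 and 54 bases before the start, and the Cd79a window 2, starting 154 and 117 bases before it. At least 1 E box stood in 66.2% of 32851 promoter windows of the same length. Neither window held an exact match to the octamer ATGCAAAT (1.6% of all windows), the TATA box TATAAA (12.4%), the early B cell factor core CCCNNGGG (11.8%) or the full estrogen response element, GGTCA and TGACC with 3 bases of any kind between them (0.0639%), each searched on both strands. Inexact sites were not counted: the stretch ctcaaggg of the Cd79a window differs from the early B cell factor core at 1 base. GC content was 42% for Jchain and 58.8% for Cd79a.

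The 11 Ighm probe sets did not behave alike. Array design names end in _x_at where probes may also match other transcripts, in _s_at where several transcripts share them, and in _a_at where they cover variants of a gene. Probe set 1425247_a_at had signals of 132 and 124 (estradiol day 2), 32.2 and 49.4 (day 3) and 172 and 236 (day 6), against 36.0 and 41.8 in controls. Its log2 differences were 1.39, 0.03 and 1.99 (SE 0.207), the largest of the tested member probe sets at days 2 and 6. The day 3 arrays enclosed the control values, while those of days 2 and 6 were far above them. With genistein its signals were 50.5 and 37.8, then 33.5 and 34.2, then 58.5 and 59.1 at days 2, 3 and 6. Only those of day 6 lay above both controls, and they missed the threshold (0.45 ± 0.207, limma, adjusted p = 0.477).

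For the Ighm probe set 1427870_x_at the estradiol arrays gave 219.6 and 219 (day 2), 174 and 149 (day 3), and 342 and 415 (day 6), against 108 and 114 in controls. Here all 6 estradiol arrays exceeded both controls, but day 3 was again the lowest day. The differences were 0.89, 0.48 and 1.63 (SE 0.196). At day 2 of genistein this probe set read 203 and 154, also above both controls (0.60 ± 0.196, limma, adjusted p = 0.334), and 87.7 and 123 at day 3, on either side of the controls. At day 6 it read 119 and 159.7, both above the controls (0.28 ± 0.196, limma, adjusted p = 0.645). A pair of dim Ighm probe sets that were not tested, 1425324_x_at and 1427756_x_at, gave the same order. The first read 45.7 and 33.0 (day 2), 2.0 and 7.5 (day 3) and 70.5 and 91.0 (day 6), against 8.4 and 6.3 in controls, and the second 73.0 and 80.3 at day 6, against 6.4 and 5.9. With genistein they stayed at or under 13.5 on all 6 arrays.

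By contrast, the brightest Ighm probe sets differed by less. Probe set 1427351_s_at stood at 2476 and 2303, 2024 and 2111, and 2622 and 2572 at days 2, 3 and 6 of estradiol, against 1738 and 1853 in controls. All estradiol arrays were above both controls, with differences of 0.41, 0.20 and 0.53 (SE 0.154). Genistein day 6 replicate 1, the array with the highest Gapdh ratio, read 2597 and its partner 1853. For 1427329_a_at the differences were 0.16, -0.02 and 0.32 (SE 0.146), with signals of 1790.4 and 1677 at day 6 of estradiol, against 1410.1 and 1354. The remaining tested probe set, 1452535_at, stayed between 50.4 and 88.4 on all arrays. The other 4, all too dim to be tested, were 1425385_a_at, 1426196_at, 1451949_at and 1427869_at, with mean signals of 37.3, 19.1, 14.1 and 1.67.

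**Figure D2:**
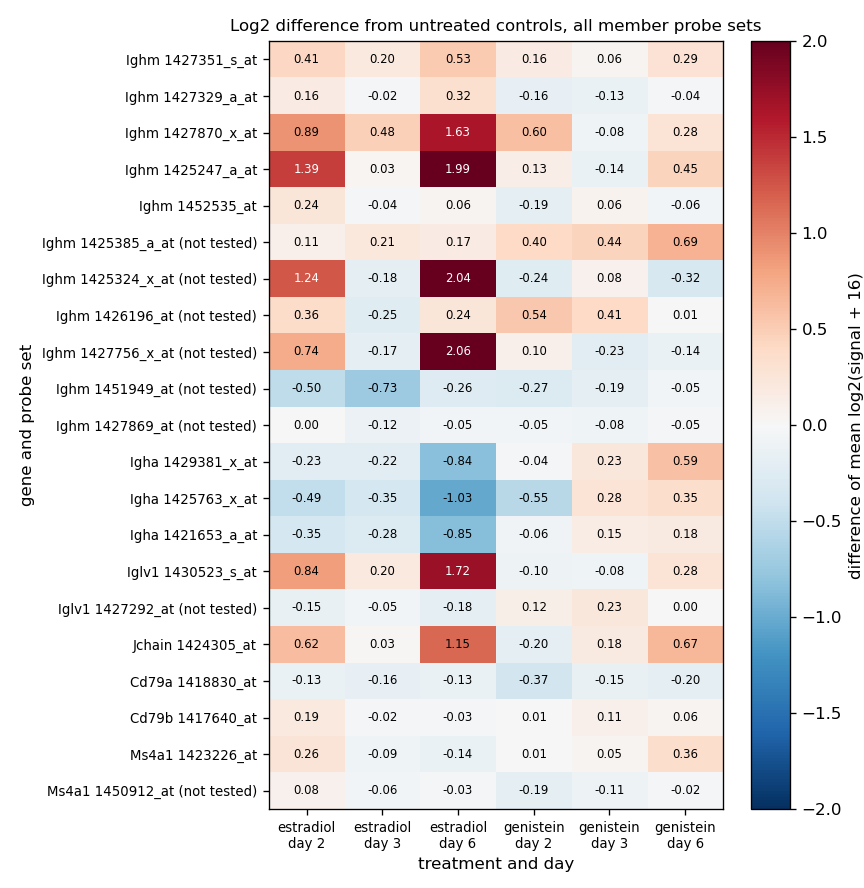
Difference of mean log2(signal + 16) from untreated controls (colour and printed number) for each of the 21 member probe sets (rows) in each treatment and day (columns). Under estradiol 8 of the 11 Ighm rows, the Iglv1 row 1430523_s_at and Jchain are positive at days 2 and 6 and smaller at day 3, the Igha rows are negative on each day, and the Cd79a, Cd79b and Ms4a1 rows lie between -0.37 and 0.36.

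Kappa light chain genes are no members, but most IgM of the mouse carries a kappa chain. The annotation gives 28 probe sets to a single other immunoglobulin gene. Of these 4 were bright enough to be tested, and none passed limma's threshold in any comparison of a treatment day with control. The background of calls was at most 0.656%, so nothing is read from their absence. The brightest, Igkv8-30, read 283 and 406 (estradiol day 2), 284 and 221 (day 3) and 355 and 415 (day 6), against 195 and 274 in controls (0.69 ± 0.201 at day 6, limma, adjusted p = 0.139). Its genistein differences were -0.42, -0.23 and -0.13 at days 2, 3 and 6. Under estradiol the brighter Igkv9-120 probe set was also lowest at day 3, with 0.71, 0.33 and 0.76 (SE 0.233). Igk gave 0.15, -0.20 and -0.10 on these estradiol days (SE 0.209). The dimmer Igkv9-120 probe set was lowest at day 2, with -0.55, 0.27 and 0.38 (SE 0.335). A further 4 probe sets bright enough to be tested were assigned to several kappa genes at once, and they are described without a test because they were chosen after their values were seen. Probe set 1427455_x_at gave 1405 and 1404 (estradiol day 2), 917 and 930.0 (day 3) and 1495 and 1503 (day 6), against 649 and 768 in controls. Its differences were 0.98, 0.38 and 1.07 (SE 0.134). All 6 arrays were above the controls, and day 3 lay between the controls and the other days. With genistein it read 611 and 776 (day 2), 807 and 824 (day 3) and 1046 and 1026 (day 6), a difference of 0.54 at day 6. In the probe set 1427660_x_at the day 6 differences of the treatments were close, at 0.66 with estradiol and 0.69 with genistein (SE 0.126). The third, 1452417_x_at, had 0.78 and 0.52 (SE 0.178). The dimmest, 1451965_at, stayed between 48.2 and 80.5 on all arrays, with differences of 0.23, -0.23 and 0.09 at days 2, 3 and 6 of estradiol (SE 0.172).

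**Figure D3:**
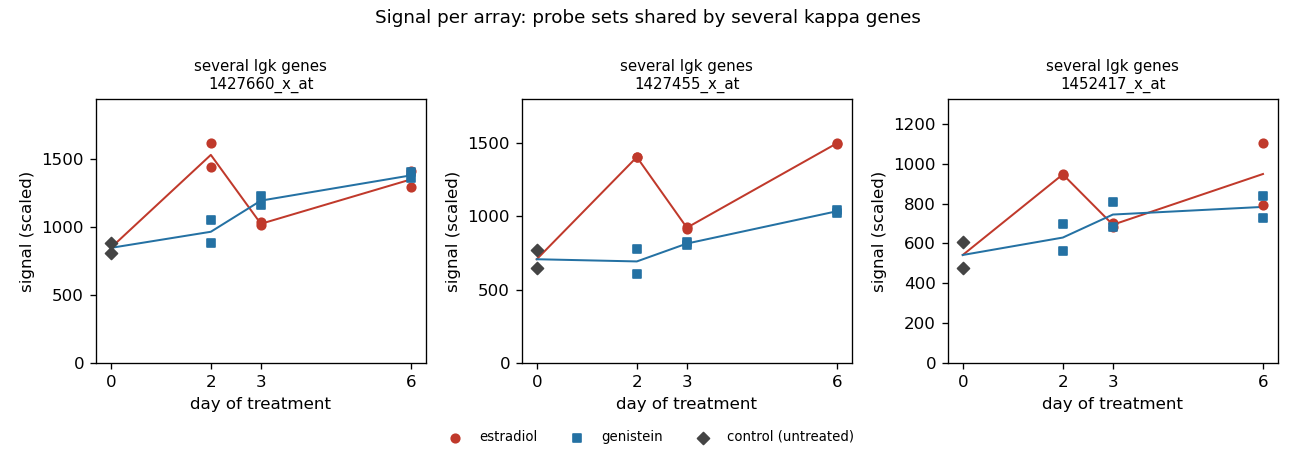
Signal per array against day of treatment for the 3 brightest probe sets that the annotation assigns to several kappa genes together, drawn as in the plot of Iglv1 and Jchain. Estradiol arrays of days 2 and 6 lie above those of day 3 in each panel, and genistein arrays are higher at day 6 than at day 2.

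Igha, in contrast, was lower than in controls at day 6 of estradiol. At day 6 its 3 probe sets read 111 and 192 (1429381_x_at), 96.6 and 159 (1425763_x_at) and 59.1 and 138 (1421653_a_at), against 262 and 288, 244 and 299, and 184 and 171 in controls. Every day 6 array was below both controls, and replicate 1 was the lowest of the 14 arrays for each probe set. The differences at day 6 were -0.84 ± 0.263, -1.03 ± 0.253 and -0.85 ± 0.304. At day 2 they were -0.23, -0.49 and -0.35, also with no overlap, and at day 3 -0.22, -0.35 and -0.28, where only 1421653_a_at lay wholly below the controls.

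Under genistein Igha was not called on any day. At day 2 1425763_x_at read 156 and 207, below both controls (-0.55 ± 0.253, limma, adjusted p = 0.422). At day 6 the signals of 1429381_x_at were 546 and 326, both above the controls, and the difference of 0.59 ± 0.263 did not pass (limma, adjusted p = 0.465). The other probe sets read 442 and 273, and 287 and 142, and overlapped the controls. The high value in each pair came from replicate 1, the array with a Gapdh ratio of 1.503, and the part of RNA quality in it was not tested. Between the treatments at day 6 the log2 differences of Igha, estradiol minus genistein, were -1.43 ± 0.263, -1.38 ± 0.253 and -1.03 ± 0.304 in the order above.

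**Figure D4:**
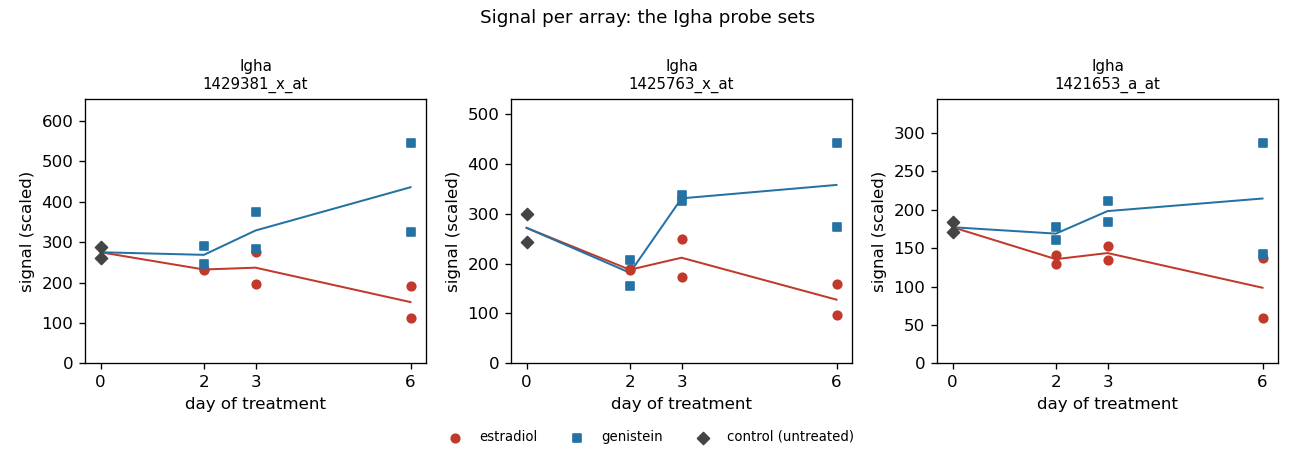
Signal per array against day of treatment for the 3 Igha probe sets, drawn as in the plot of Iglv1 and Jchain. At day 6 all estradiol arrays lie below both controls, and genistein replicate 1 reads 546, 442 and 287.

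The B cell surface genes stayed near their control levels. Cd79a read 61.9 and 85.8 (estradiol day 2), 73.4 and 69.0 (day 3) and 75.1 and 71.1 (day 6), against 63.1 and 103 in controls. All estradiol arrays except the first of day 2 lay between the controls, which were themselves far apart. Cd79b had 169 and 139, 137 and 124, and 134 and 124 at the same days, against 127 and 138. Ms4a1 had 87.6 and 148, 109.9 and 66.7, and 81.1 and 84.4, against 120.4 and 70.3. At day 6 of estradiol the differences were -0.13 ± 0.221 for Cd79a, -0.03 ± 0.172 for Cd79b and -0.14 ± 0.278 for Ms4a1. With genistein the differences of these genes over the 3 days ran from -0.37 to 0.36, with limma adjusted p of 0.522 to 0.994. The second Ms4a1 probe set, 1450912_at, did not exceed 15.0 on any array.

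**Figure D5:**
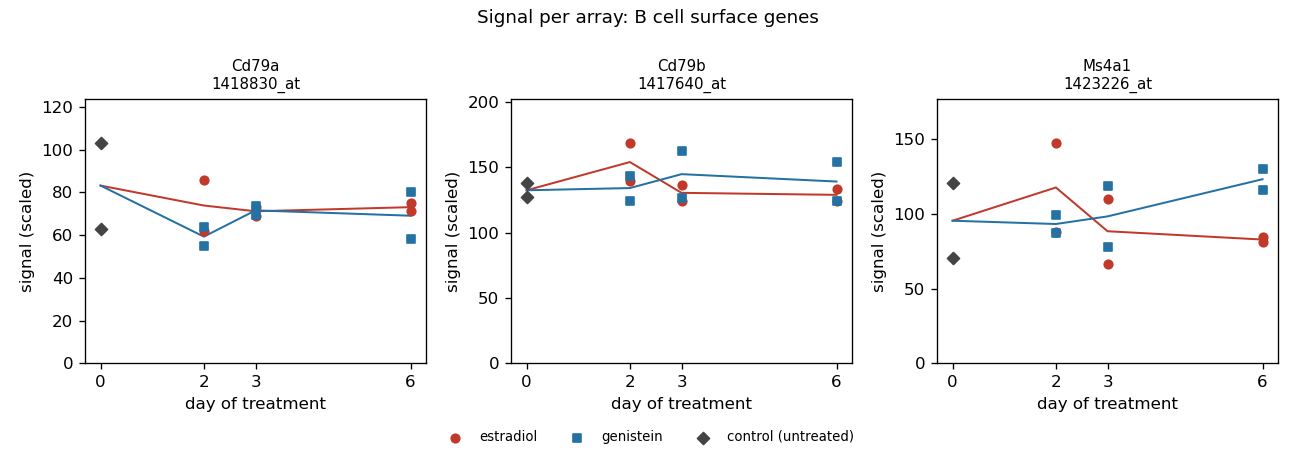
Signal per array against day of treatment for Cd79a, Cd79b and the brighter Ms4a1 probe set, drawn as in the plot of Iglv1 and Jchain. Estradiol, genistein and control arrays overlap in every panel at day 6 except for Ms4a1, where estradiol lies at 81.1 and 84.4 and genistein at 116 and 130.1.

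Over all 13 tested member probe sets, limma called 4 higher and 0 lower at day 6 of estradiol against control (2 of Ighm, Iglv1 and Jchain). The background among all 13575 probe sets was 0.611% called higher and 0.0442% lower, 0.656% in either direction. At day 2 it called 1 higher (Ighm 1425247_a_at, background 0.0737% higher and 0.0884% in either direction). At day 3 it called 0 (background 0.0589% higher and 0.0663% in either direction), where 1 member had an unadjusted p under 0.05 (background 10.2%). Among the days of estradiol the moderated F test called 1 member, Ighm 1425247_a_at (background 0.0221%). This probe set passed the brightness filter only through days 2 and 6 of estradiol: its mean log2 level over the other 10 arrays was 5.87, under the filter's floor of 5.92. Its day 6 minus day 3 difference was 1.95, beside 1.52 for Iglv1, 1.12 for Jchain and 1.15 for Ighm 1427870_x_at. Because these comparisons chose the members, nothing is read from the counts. Arrays of day 6 lay wholly above the controls for 6 members and wholly below for 3, where the background was 24.9% and 24.6% of probe sets. For day 2 the counts were 7 and 3 (background 20.8% and 17%), and for day 3 they were 2 and 1 (23.6% and 22.5%). Without estradiol day 6 replicate 2 the 4 calls of day 6 became 0. The call of day 2 was lost without control replicate 2, without either estradiol day 2 array, without the 3 arrays deposited at another scale and with no filter on low values. Of the arrays at another scale, estradiol day 2 replicate 2 was at 1.49 times and the day 3 arrays at 2.00 and 2.23. After rescaling, day 2 replicate 2 read 124 against 132 in its partner for Ighm 1425247_a_at. For Jchain it read 266 against 342, and for Ms4a1 1423226_at 148 against 87.6. The part of the scale in the low day 3 values was not tested. Without these 3 arrays 4 members were called at day 6 and 0 at day 2.

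With genistein limma called 0 of the 13 members at days 2, 3 and 6 against control, where the background was 0.0147%, 0.00737% and 0.00737% in either direction. At an unadjusted p under 0.05 there were 2, 0 and 3 members, where the background was 11.8%, 5.73% and 10.4% of probe sets. The median difference of the members was -0.06, 0.06 and 0.28 at days 2, 3 and 6, against 0.03, -0.00 and 0.02 for all probe sets. Both arrays lay above both controls for 2, 2 and 5 members at days 2, 3 and 6, where the background was 21.5%, 14.6% and 18.9%. They lay below for 2, 1 and 0, where it was 17.5%, 15.5% and 17.4%. Jchain, Ighm 1425247_a_at and 1 Igha probe set made up the 3 of day 6, each higher. The test of change among the days of genistein also called 0 members and 0 of all probe sets (limma's moderated F test, background 0%). It had 4 members at an unadjusted p under 0.05 (background 5.79%), with Ighm 1425247_a_at among the 4. Jchain had the smallest p of these (adjusted p = 0.612).

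Estradiol against genistein at the same day shares the estradiol arrays that chose the members and is given as a description. At day 6 limma called 3 members higher with estradiol (Ighm 1425247_a_at and 1427870_x_at, and Iglv1) and 2 lower (both Igha), where the background was 0.243% and 0.0221%, or 0.265% in either direction. The differences were 1.54 ± 0.207, 1.35 ± 0.196 and 1.44 ± 0.209 for the first 3. At day 2 only Ighm 1425247_a_at was called (1.26 ± 0.207, background 0.081%), which owes its place among the tested probe sets to the estradiol arrays. At day 3 none was (0.0147%), with 2 members at an unadjusted p under 0.05 (background 6.7%). Without either estradiol day 6 array, or without genistein day 6 replicate 1, the calls of all days together became 0.

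Other genes of B cells and plasma cells were taken from lists of 44 genes, of which 36 were on the array and 23 bright enough to be tested. Pax5 and Ebf1, transcription factors that set B cell identity, were too dim, with mean signals of 13.4 and 18.5 for their brightest probe sets, as was Tnfrsf17, a survival receptor of plasma cells, at 20.7. The 14 tested B cell genes had a median difference of 0.20, 0.09 and 0.10 at days 2, 3 and 6 of estradiol, against 0.02, 0.01 and 0.00 over all probe sets. None of the 14 was called on any day of either treatment. The background of calls was 0.0884%, 0.0663% and 0.656% at days 2, 3 and 6 of estradiol. With genistein it was 0.0147%, 0.00737% and 0.00737%, so nothing is read from the absence of calls. At an unadjusted p under 0.05 there was 1 on each day of estradiol, and 2, 0 and 2 with genistein at days 2, 3 and 6. The background at that cutoff was 12.3%, 10.2% and 14% of all probe sets with estradiol and 11.8%, 5.73% and 10.4% with genistein. Cd37, a tetraspanin of B cells, Bach2, a repressor that holds back plasma cell formation, Ly86, which pairs with the receptor Cd180, and Cd22, an inhibitory B cell receptor, were the brightest. Ly86 read 141 and 152 (estradiol day 2), 116 and 128 (day 3) and 148 and 154 (day 6), against 87.6 and 103 in controls. All its estradiol arrays were above the controls, and the day 6 difference of 0.59 ± 0.149 missed the threshold (limma, adjusted p = 0.0973). It was the largest of the 14 at that day, which ran from -0.31 to 0.59. Cd37, Bach2 and Cd22 had 0.36, 0.48 and 0.34, whereas Cd180, the partner of Ly86, had -0.07 ± 0.238. Of the 14, 9 were positive at that day.

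Plasma cell genes gave 8 tested members with a median of 0.05, 0.06 and 0.23 under estradiol and no call on any day of either treatment. The background of calls was that of the B cell genes, at most 0.656%, so nothing is read from the absence of calls. At an unadjusted p under 0.05 there were 2, 1 and 3 with estradiol and 0, 0 and 1 with genistein, against the background given above for that cutoff. At day 6 of estradiol 6 of the 8 differences were positive, where the median over all probe sets was 0.00. Both arrays lay above both controls for 2 of the 8 and below for 2, where the background was 24.9% and 24.6%. Xbp1, the transcription factor of the secretory programme, read 1476 and 1452 at day 6 of estradiol, against 1747 and 1732 in controls (-0.25 ± 0.114, limma, adjusted p = 0.352). Edem1, which helps clear misfolded glycoproteins, gave -0.37 ± 0.157 (limma, adjusted p = 0.321). Txndc5 and Creld2, both of the endoplasmic reticulum, completed the 4 brightest, with 0.30 ± 0.209 and 0.33 ± 0.208 at day 6 of estradiol (limma, adjusted p = 0.565 and 0.517). The 4 dimmer genes, Ell2, Derl3, Sdc1 and Prdm1, had 0.49, 0.37, 0.17 and 0.08 on that day (limma, adjusted p = 0.290 to 0.912). Derl3 also had 0.80 at day 2 of estradiol and 0.79 at day 6 of genistein (limma, adjusted p = 0.251 and 0.362). Of all 32 tested probe sets of these lists, only 1 was called in any comparison with control: 1455332_x_at of Fcgr2b, the inhibitory Fc receptor of B cells and macrophages. It read 91.3 and 85.5 at day 6 of estradiol, against 28.2 and 39.7 in controls (1.07 ± 0.225, limma, adjusted p = 0.0484, background 0.656%). The call held in 5 of 21 alternative analyses, with adjusted p of 0.0240 to 0.332. The brightest Fcgr2b probe set had 0.36 and did not pass.

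Markers of other cells were summed per array as measured values. Endothelial markers (Plvap, Pecam1, Cdh5 and Kdr, 4 of 4 on the array) summed to 458 to 475 at day 2 of estradiol, 351 to 379 at day 3 and 445 to 492 at day 6, against 374 to 429 in controls. Much of this dip was that of Plvap, a protein of vessel diaphragms. It read 122 and 103, 30.4 and 27.5, and 89.0 and 118 at days 2, 3 and 6, against 64.1 and 72.8. Of the 4 endothelial genes, 1 was higher at day 3 than at day 2 of estradiol, and 4 were higher at day 6 than at day 3. Macrophage markers (6 of 6) summed to 1528 to 1662, 1627 to 1730 and 1582 to 1788 on the 3 estradiol days, against 1120 to 1121, so they did not dip at day 3. Lymph node markers (4 of 6 on the array) summed to 262 to 304, 205 to 224 and 156 to 224, against 211 to 215. Among these Glycam1, a protein of lymph node vessels, was at or under 7.4 except on estradiol day 2 replicate 1 and day 3 replicate 2, at 47.6 and 26.8. Class II antigen presentation genes (4 of 4), which B cells share with dendritic cells and epithelium, summed to 7904 to 8109, 7589 to 7600 and 7466 to 7939, against 6015 to 6370. Red blood cell markers (3 of 4) summed to 121 to 129 at day 6 of estradiol, against 184 to 201 in controls. At day 6 of genistein the red blood cell markers summed to 122 to 138, so they were low there too. On these genistein arrays the macrophage sums were 1393 to 1532 and the class II sums 7316 to 8157, also above the controls. Their endothelial sums were 337 to 410 and their lymph node sums 229 to 320. The part of these cells in the immunoglobulin values was not tested.

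The patterns most like the members were sought among all other tested single-gene probe sets, by Pearson correlation of log2 levels over the 14 arrays, which share their groups. For Iglv1 1430523_s_at they were Krt8 (r = 0.91, Spearman rho 0.87), Crip3, Prg4, Nqo1 and Trp63 (r = 0.89). Krt8 is a keratin and Trp63 a transcription factor of epithelia. For Jchain they were As3mt (r = 0.89), H2-K1, Acaa1b, Hey1 and Osmr. For the brightest Ighm probe set they were Lars (r = 0.90), Copz2, Dsp, Ppm1m and Arfgef1, and for Cd79a Mgat2 (r = 0.89), Abhd17c, Retreg1, Tspan32 and Rab32. None of these holds a B cell gene from the lists above. Those lists have only 32 tested probe sets, among 13575 in all, so nothing is read from their absence.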

How the data were processed

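The authors deposited one intensity (signal) per probe set for 14 Affymetrix arrays, made with MAS5 5.0 per the submitters' processing notes. Detection calls were not used here. Groups, days and replicates follow the labels. Each array was rescaled so that its 2%-trimmed mean equalled 150.04. Probe sets were named from the platform annotation, updated by gene ID (20392 of 20393 single symbols matched; 691 carried several and 1606 none). After removal of 64 control probe sets, values became log2(signal + 16), and the dimmest 40% (mean of the 14 arrays) were dropped before testing, leaving 13575 probe sets of 8212 genes. limma 3.58.1 in R 4.3.3 fitted 7 group means (7 residual degrees of freedom, 13.7 after moderation), with eBayes trend and Benjamini-Hochberg adjustment per comparison at 0.05. P-values describe the spread between pools of mice, and precision is limited by 2 arrays a group. In values simulated for estradiol day 6 against control over 13575 probe sets, 52 of 100 shifts of 2-fold in signal + 16 were recovered. For 4-fold shifts it was 98 of 100, with 2 false calls. The simulated noise was independent between probe sets, so effects that real arrays share, such as RNA quality, were not in it.

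Members and lists were chosen with earlier results of these data known. List genes were represented by their brightest probe set. List genes were named where called, and otherwise up to 4 of the brightest; of other immunoglobulin genes up to 8, and for likeness the 5 highest correlations. Tnfrsf17, Pax5, Ebf1, Cd180, Ell2, Derl3, Sdc1, Prdm1, Plvap, Glycam1, Rag1, Dntt, Cd8a and Cd8b1 were named after their values were seen or as defining markers. Alternatives were pseudocounts of 1 and 64, no filter, quantile normalization, the deposited scale, the replicate number as a block, the arrays of another scale left out and each array left out.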

Additional observations from a re-analysis of the deposited data

Results flagged for a closer look

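In 3 of the tested member probe sets both estradiol arrays of a day lay on one side of both controls and both genistein arrays on the other. They were Igha 1429381_x_at at day 6, with estradiol minus genistein at -1.43 on the log2 scale, Igha 1421653_a_at at day 3, at -0.42, and Ighm 1452535_at at day 2, at 0.43. In limma's fit of estradiol against genistein the first was called and the others were not. Because the estradiol arrays chose the members, these differences are a description. The share of all probe sets with the treatments on opposite sides of the controls was not counted, so nothing is read from the count.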

How the results depend on the processing

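Under the alternatives, no printed member difference larger than 2 SE changed sign. None of the 39 genistein differences passed under the 21 alternatives, where the lowest adjusted p (limma) of each ran from 0.148 to 0.753, and the counts of genistein calls, against control and among days, stayed at 0. The 5 member calls of estradiol against control, all days together, became 19 on the deposited scale, 6 without a filter and with quantile normalization, 4 without the arrays at another scale, and 1 to 5 without single arrays. The 1 call among estradiol days became 2 with a pseudocount of 64, 3 without a filter, 10 on the deposited scale, 0 without the arrays at another scale, and 0 to 2 without single arrays. It was 0 without estradiol day 3 replicate 1 or day 6 replicate 2. The 6 calls between the treatments became 3 with a pseudocount of 1, 13 on the deposited scale, 3 without the arrays at another scale and 0 to 5 without single arrays. The 1 call among other B lineage genes became 0 with a pseudocount of 1, without a filter and without the arrays at another scale, 30 on the deposited scale and 0 to 8 without single arrays, with 8 without control replicate 1. With the arrays at another scale left out, day 3 of estradiol has no value. With the replicate number as a block, the 6 calls between treatments became 3, and the other counts were the same. Pairing of equal numbers is not stated. The correlation of replicate differences between groups ran from -0.26 to 0.35 over 21 pairs of groups, 5 of them above 0.1, and 5 of 7 groups correlated positively with the rest. The cause of these changes in counts was not tested.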
